A study of Folsomia candida with 36 samples.

Results

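The genes described here are 100 gene models of the springtail Folsomia candida. Their expression in unexposed animals followed most closely, relative to its spread, an alternation from one 12 h sampling point to the next. The choice was not by the size of the alternation. They were taken from the 11719 gene models, of 28734 in all, that had a mean of 5 or more CPM (counts scaled to a library total of 1000000) over the 36 libraries. In the 18 control libraries a straight line over time was removed from log2(CPM + 0.5) of each gene. What remained was correlated with a pattern of +1 at 24, 48 and 72 h and -1 at 12, 36 and 60 h. The 50 genes with the highest correlation are called the high set, because they stood higher at 24, 48 and 72 h, and the 50 with the lowest correlation are called the low set. The genes were thus chosen by their control values of log2(CPM + 0.5), and their pattern in controls is a description with no test. The imidacloprid libraries had no part in the correlation, and the question put to them is whether the same genes alternated there too.

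Folsomia candida is a soil-dwelling hexapod that reproduces by parthenogenesis and is a standard test organism of soil toxicology. In insects, many transcripts rise and fall once a day under the joint control of light and of an internal clock built on feedback between proteins such as Period, Timeless, Clock and Cycle. Expression in arthropods also changes with feeding and with the moulting cycle, during which genes of the cuticle are switched on and off. A process that repeats every 24 h and is sampled every 12 h appears as an alternation between successive samples. The animals were kept at 16 h of light and 8 h of dark, and the labels do not give the hour of day of sampling.

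Whole-body RNA was sequenced from pools of 70 wild-type animals of the Berlin strain. Control pools were put on LUFA2.2, a natural soil mixed with water, and exposed pools were put on the same soil with imidacloprid at 0.25 mg per kg dry soil. Imidacloprid, a neonicotinoid, binds the nicotinic acetylcholine receptors of insect nerve cells, and this concentration is labelled as the EC20 for reproduction, the concentration that lowers it by 20%. Both treatments were held at 20 °C and 75% relative humidity and sampled at 12, 24, 36, 48, 60 and 72 h, with 3 libraries in each of the 12 groups. The labels give no age. Pools were held in jars, and nothing further is said of what separates replicates, so p-values measure the spread between these libraries, part of which may be technical. Total counts per library ran from 20280135 to 42146055, and 3 counts in the smallest library, taken as the floor for counting error, equal 0.148 CPM. Genes carry the identifiers of the deposited table, without names, so the products of the 100 genes are not described.

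3 libraries of exposed animals stood apart in these genes, 2 of them also across the transcriptome. Results that rest on the 3 are given with and without them. Imidacloprid 12 h replicate 2, 48 h replicate 5 and 60 h replicate 3 had the lowest mean levels of the high set among exposed libraries, at 2.81, 3.46 and 3.07 on the log2(CPM + 0.5) scale. They also had the highest mean levels of the low set among exposed libraries, at 4.65, 4.95 and 4.98. The next was 72 h replicate 1, at 4.63. Such levels were not particular to exposed animals. Control 12 h replicate 3 and control 60 h replicate 6 stood at 3.13 and 3.42 in the high set, and at 4.75 and 4.87 in the low set. Total counts of the 3 exposed libraries were 33852877, 32149171 and 23108680, so they were not the shallowest. Over all exposed libraries, total counts correlated at -0.43 with the level of the high set and at 0.25 with that of the low set. In controls these correlations were 0.06 and -0.14. The part of depth in these levels was not tested. Scores of the 3 libraries on the first principal component of the other genes, the main axis of difference between libraries, were -1.38, -1.97 and -2.56 SD units. The last 2 of these were the lowest of all 36 libraries. The first was not apart on this axis, since imidacloprid 72 h replicate 4 (library 71) scored -1.41.

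In controls, the correlation with the alternating pattern ran from 0.731 down to 0.578 in the high set and from -0.663 to -0.525 in the low set. The limits of the sets are not natural gaps: the last gene inside the high set had a correlation of 0.5775 and the first outside it 0.5772, and the low set ended at -0.5248 with the next gene at -0.5246. The median correlation over all 11719 genes was 0.092 in controls and -0.00 in the imidacloprid libraries. Mean expression over all libraries was between 5.14 and 241 CPM in the high set, with a median of 23.1. It was between 5.20 and 1836 CPM in the low set, with a median of 15.8, against 32.7 CPM over all genes of 5 CPM or more.

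The size of the swing in controls was larger in the high set than in the low set. It was measured for each gene as the fitted log2 difference of 24, 48 and 72 h minus 12, 36 and 60 h, with the linear part over time removed. In controls its median was 1.10 in the high set, with a range of 0.12 to 2.08, and -0.55 in the low set, with a range of -1.38 to -0.20. In the controls alone, edgeR's quasi-likelihood test called 0 of the 18986 genes tested, which is 0% of them, at an adjusted p under 0.05. The smallest adjusted p was 0.469, and 1944 genes were under 0.05 before adjustment. DESeq2 called 49 genes, 0.258% of those tested, among them 21 of the high set and 1 of the low set, and limma-voom called 0. Since the rule used this contrast, nothing is read from the members' counts in it.

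The mean level of the high set in controls, taken as the mean of log2(CPM + 0.5) over its 50 genes, was 3.81 ± 0.63 (SD, n = 3 here and below), 4.92 ± 0.50, 4.08 ± 0.37, 4.84 ± 0.51, 3.97 ± 0.64 and 5.66 ± 0.13 in the order of the 6 times. The level at 72 h stood above the other control peaks. The mean level of the low set was 4.51 ± 0.25, 3.96 ± 0.22, 4.50 ± 0.18, 3.78 ± 0.22, 4.49 ± 0.39 and 4.37 ± 0.14 in the same order. Its last trough was shallow: from 60 to 72 h, 39 of the 50 genes had a lower mean, against 59.4% of all genes of 5 CPM or more, and the median difference was -0.12. The groups of 3 libraries did not overlap in 1 of the 50, against 7.78% of all genes. In RNA from whole animals, fewer cells of a type and less RNA per cell cannot be told apart.

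**Figure D1:**
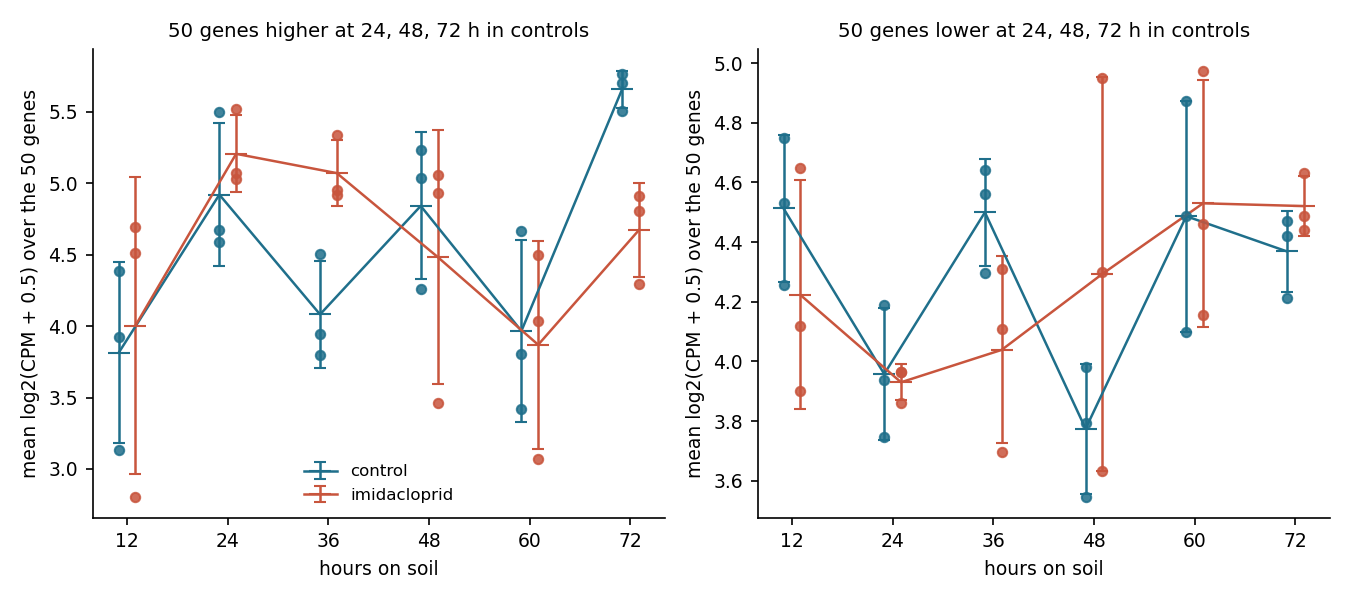
Mean log2(CPM + 0.5) over the 50 genes of the high set (left) and of the low set (right) at each hour on soil, with a point for each library, group means joined by lines and bars of 1 SD (n = 3), in controls and with imidacloprid. In controls both sets go up and down at successive times, by the choice of the genes, and with imidacloprid the high set stays at 5.07 at 36 h after 5.21 at 24 h.

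By the fitted difference, most genes of both sets kept the direction of controls in exposed animals, with smaller medians. For the low set this depended on how time was handled and on single libraries. The fitted difference was positive in 47 of the 50 genes of the high set, where 52.6% of all genes of 5 CPM or more were positive. It was negative in 40 of the 50 genes of the low set, where the share over all genes was 47.4%. The median difference was 0.37 in the high set and -0.10 in the low set, against -0.00 over all 19176 genes tested in the exposed libraries. The range was -0.18 to 2.22 in the high set and -0.60 to 0.20 in the low set. The standard error of a single gene had a median of 0.30 in the high set and 0.24 in the low set. The control differences are large by the choice of the genes, and libraries outside the choice tend to show smaller ones. Whether imidacloprid changed the size of the swing was not tested. With the linear part left in, 43 genes of the high set and 20 of the low set kept the direction of controls. Without the 12 h time point, 39 and 23 did. Only 1 gene of the high set and 2 of the low set moved the way of the alternation at all 5 steps between times. The shares over all genes of 5 CPM or more were 4.95% and 3.09%.

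None of the 100 genes passed the test in exposed animals. The fit to the 18 imidacloprid libraries tested all 100 of them and called 12 genes in all (edgeR, adjusted p under 0.05), 0.0626% of those tested, each higher at 24, 48 and 72 h and none of them a member. At an unadjusted p under 0.05 there were 17 genes of the high set, all higher, against 2.24% of all genes tested. There were 2 genes of the low set, both lower, against 0.542%. Members of a set varied together, as described below, so these counts are not counts of independent genes. DESeq2 called 44 genes, 0.229%, of which 2 were members, and limma-voom called 9, 0.0469%, of which 0 were members. Of the 12 genes called by edgeR, 10 had a mean of 5 CPM or more.

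**Figure D2:**
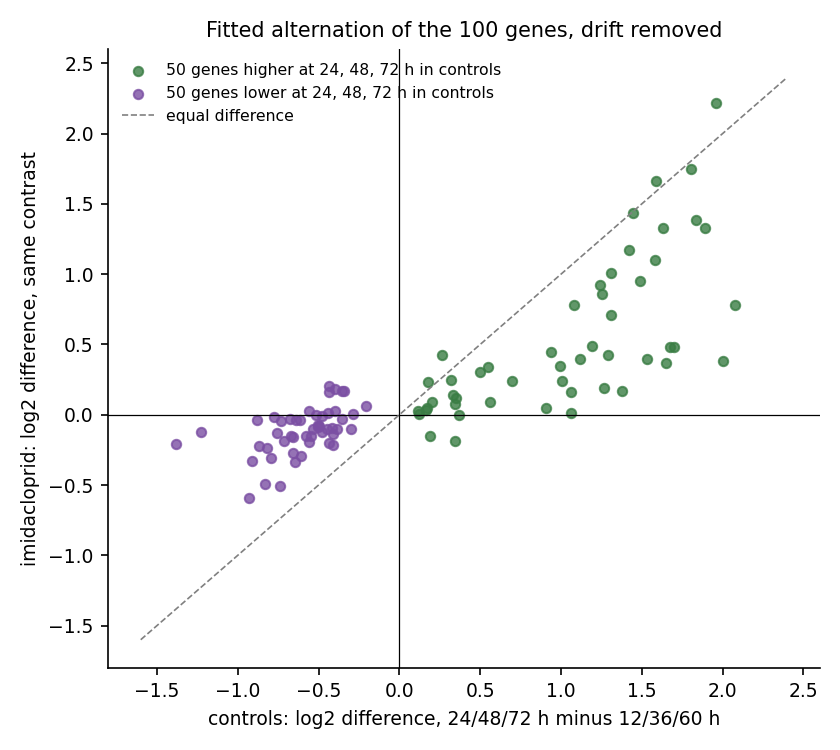
Fitted log2 difference of 24, 48 and 72 h minus 12, 36 and 60 h for each of the 100 genes, in controls (x axis) and with imidacloprid (y axis), with the dashed line marking equal differences. Of the high set, 47 genes lie above 0 on the y axis, and of the low set 40 lie below it. Most of these lie nearer to 0 than in controls, where the differences are large by the choice of the genes.

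The single-gene correlation with the alternating pattern gave the same order of the sets. In the imidacloprid libraries its median was 0.207 in the high set, between -0.391 and 0.722, and it was above 0 in 45 of 50 genes. It reached 0.5 in 10 genes of the high set, against 1.47% of all genes of 5 CPM or more. In the low set the median was -0.144, between -0.473 and 0.319, with 42 genes below 0. It reached -0.5 in 0 genes of the low set, against 0.307% of all genes. When the rule was applied to the imidacloprid libraries instead, it took 50 of the 11719 genes for each list. Of the 50 with the highest correlation 3, or 6% of either list, were in the high set. Of the 50 with the lowest, 0 were in the low set.

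The direction of the low set depended on how time was handled and on single libraries. With the linear part left in, 20 of its 50 genes were lower at 24, 48 and 72 h and the median was 0.026. Without the 12 h time point, 23 were lower and the median was 0.010. Without imidacloprid 60 h replicate 3, 25 were lower and the median was 0.0012. The high set kept a positive median in the same runs, at 0.29 with 43 genes positive, 0.18 with 39 and 0.25 with 41. Leaving out 48 h replicate 5 instead gave 48 genes of the high set and 45 of the low set in the direction of controls, with medians of 0.45 and -0.26.

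Step by step, most genes of both sets moved the way of the controls from 12 to 24 h and from 48 to 60 h in exposed animals, and most of the high set also from 60 to 72 h. From 24 to 36 h the majority was small, and from 36 to 48 h most genes of both sets went the other way. Control changes given beside the steps are large by the choice of the genes. Single libraries moved the counts of several steps in exposed animals, as given with each. From 12 to 24 h the mean of log2(CPM + 0.5) was higher in 48 of the 50 genes of the high set, against 67.4% of all genes of 5 CPM or more, with a median difference of 1.24. The 3 libraries at 24 h lay wholly above the 3 at 12 h in 28 of these genes, against 6.57% of all genes. Of the low set, 42 genes had a lower mean, against 32.6% of all genes, with a median of -0.29, and in 10 the groups did not overlap, against 3.27%. Without imidacloprid 12 h replicate 2, the first step counted 46 genes of the high set with a median of 0.56, and 28 genes of the low set with a median of -0.08.

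From 24 to 36 h the fall and the rise seen in controls were small in exposed animals. The mean was lower in 30 genes of the high set, against 42.4% of all genes, with a median difference of -0.07 where controls had -0.73. It was higher in 31 genes of the low set, against 57.6%, with a median of 0.12 where controls had 0.50. The groups did not overlap in 7 genes of the high set and 5 of the low set, against 7.4% and 6.44% of all genes. The share of the low set was therefore near that of all genes. Single libraries moved this step both ways. The high set counted 23 lower, with a median of 0.04, without 24 h replicate 2, and 37, with a median of -0.20, without 36 h replicate 6. The low set counted 22 higher, with a median of -0.07, without 36 h replicate 2, and 45, with a median of 0.27, without 36 h replicate 6.

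From 36 to 48 h the exposed animals ran against the alternation in both sets. Only 2 genes of the high set had a higher mean, against 39.2% of all genes, with a median difference of -0.43 where controls had 0.65. Only 5 genes of the low set had a lower mean, against 60.8%, with a median of 0.25 where controls had -0.70. The groups overlapped in all 7 of these genes, where 2.55% and 2.46% of all genes showed no overlap in those directions. This step rested on 1 library: without imidacloprid 48 h replicate 5 the counts were 22 and 35, and both medians were -0.08. Without any other single library the high set counted between 0 and 6 and the low set between 0 and 17.

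From 48 to 60 h, 39 genes of the high set had a lower mean, against 53.2% of all genes, with a median difference of -0.20. In the low set 39 had a higher mean, against 46.8%, with a median of 0.24. Groups did not overlap in 5 and 0 of them, against 1.65% and 1.64% of all genes. The count for the low set was 16 without imidacloprid 48 h replicate 3, and that for the high set was 26 without 48 h replicate 6. Both sets counted 28 without 60 h replicate 3. Without 48 h replicate 5 the counts were higher, at 48 and 47, with medians of -0.83 and 0.55.

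From 60 to 72 h, 45 genes of the high set had a higher mean, against 46% of all genes, with a median difference of 0.58 where controls had 1.79. Groups did not overlap in 13 of them, against 4.2% of all genes. In the low set 25 had a lower mean, against 54%, with a median of -0.01. The groups overlapped in all of them, where 1.08% of all genes showed no overlap. Without 60 h replicate 3 the high set still counted 41, with a median of 0.21, and the low set counted 10, with a median of 0.26. Without 60 h replicate 5 the counts were 49 and 43, with medians of 0.87 and -0.17. Over all 5 steps, 1 gene of the high set and 2 of the low set moved the way of the rule at every step in exposed animals, against 4.95% and 3.09% of all genes. In controls these counts were 48 and 39, by the choice of the genes, against 5.09% and 5.36% of all genes.

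**Figure D3:**
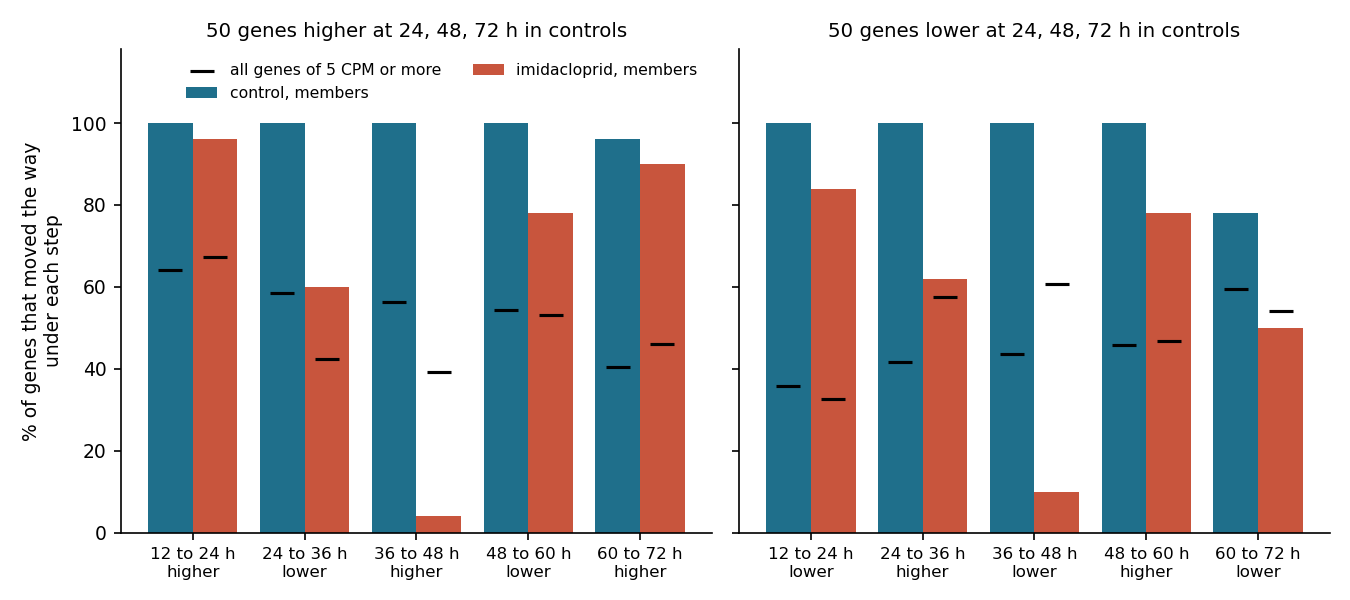
Percentage of the 50 genes of the high set (left) and of the low set (right) whose mean moved the way written under each step, in controls and with imidacloprid, with black marks for all genes of 5 CPM or more. The bars of the controls are high by the choice of the genes, and with imidacloprid the step from 36 to 48 h counts 2 and 5 of 50 genes.

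At the level of whole sets, the mean level of the high set in exposed animals was 4.00 ± 1.04, 5.21 ± 0.27, 5.07 ± 0.23, 4.49 ± 0.89, 3.87 ± 0.73 and 4.67 ± 0.33 in the order of the 6 times. The difference between the phases, with the linear part removed, was 0.56, below the spread within a group of 0.66. In controls, where the difference is large by the choice of the genes, it was 1.08 with a spread of 0.50. The mean level of the low set in exposed animals was 4.22 ± 0.38, 3.93 ± 0.06, 4.04 ± 0.31, 4.29 ± 0.66, 4.53 ± 0.42 and 4.52 ± 0.10 at these times. Its difference was -0.13 with a spread of 0.38, and in controls, again by the choice of the genes, -0.51 with a spread of 0.24. Without the 3 libraries that stood apart, the difference in exposed animals was 0.36 in the high set, with a spread of 0.25. It was -0.07 in the low set, with a spread of 0.26. Those 3 libraries had the extreme levels of the sets, so leaving them out narrows the spread by itself.

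The treatments stood furthest apart in the high set at 36 and 72 h. At 36 h the 3 control libraries had mean levels of the high set between 3.80 and 4.50, and the 3 exposed libraries lay between 4.92 and 5.34, without overlap. At 72 h the order was the opposite, with controls between 5.51 and 5.76 and exposed libraries between 4.30 and 4.91. These control values helped to choose the genes, so the differences at single times are given without a test. The levels of the low set overlapped between treatments at all 6 times.

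The gene with the highest correlation in controls, 0.731, was Fcan01_08259. In the controls it stood at 4.70, 2.17 and 3.62 CPM at 12 h, 9.38, 8.49 and 18.9 at 24 h, 3.88, 6.01 and 3.33 at 36 h, 18.9, 8.41 and 6.38 at 48 h, 3.00, 11.0 and 2.83 at 60 h, and 34.6, 36.8 and 28.6 at 72 h. The 3 libraries of each peak lay above those of the trough before it, the last step by the widest margin. With imidacloprid it stood at 0.798, 6.07 and 9.97 CPM at 12 h, 26.8, 15.1 and 15.3 at 24 h, 10.0, 9.27 and 13.2 at 36 h, 12.9, 5.04 and 18.2 at 48 h, 3.47, 1.64 and 5.73 at 60 h, and 8.47, 11.2 and 9.05 at 72 h. Here 24 h lay wholly above 12 h and 72 h above 60 h, while 36 and 48 h overlapped. The fitted difference was 1.63 ± 0.32 (SE here and below) in controls, and 1.33 ± 0.38 with imidacloprid, where it did not pass the test (edgeR, adjusted p = 0.799).

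Fcan01_07469 came next, with a correlation of 0.714 in controls and a fitted difference there of 1.83 ± 0.43. Its control values were lowest at 60 h replicate 6, at 2.15 CPM, and highest at 72 h replicate 4, at 65.8 CPM. With imidacloprid it stood at 1.54, 15.7 and 14.7 CPM at 12 h, 52.3, 32.5 and 28.7 at 24 h, 24.4, 16.0 and 35.0 at 36 h, 29.8, 6.13 and 35.1 at 48 h, 6.19, 0.952 and 10.4 at 60 h, and 14.1, 21.1 and 20.5 at 72 h. As in the gene before, 36 and 48 h overlapped and both outer steps did not. The difference with imidacloprid was 1.39 ± 0.46 (edgeR, adjusted p = 1).

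Within the high set, Fcan01_04883 had the largest fitted difference in exposed animals, 2.22 ± 0.60, or 4.66-fold, where controls had 1.96. With imidacloprid it stood at 0.0886, 14.9 and 13.6 CPM at 12 h, 66.8, 34.6 and 30.9 at 24 h, 22.1, 9.57 and 21.9 at 36 h, 37.1, 7.09 and 38.1 at 48 h, 3.41, 0.649 and 4.72 at 60 h, and 22.7, 17.0 and 17.2 at 72 h. The lowest value, in 12 h replicate 2, is 3 counts and so at the floor, and the low values at 12, 48 and 60 h are those of the libraries that stood apart. The difference did not pass edgeR's test (adjusted p = 0.682), and it passed DESeq2's (adjusted p = 0.0439).

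The member nearest to the threshold in exposed animals was Fcan01_09653, which was chosen for mention after its values were seen. With imidacloprid it stood at 16.8, 89.7 and 83.7 CPM at 12 h, 286, 208 and 136 at 24 h, 115, 80.8 and 138 at 36 h, 140, 43.8 and 163 at 48 h, 18.9, 8.31 and 29.7 at 60 h, and 69.4, 73.8 and 73.9 at 72 h. All libraries at 24 h lay above those at 12 h, all at 48 h above those at 60 h, and all at 72 h above those at 60 h. The fitted difference was 1.67 ± 0.33, or 3.17-fold, close to the 1.59 of the controls, with an edgeR adjusted p of 0.130. It was called by DESeq2 (adjusted p = 0.00146) and by edgeR without imidacloprid 12 h replicate 2 (1.58, adjusted p = 0.0411). Over all alternatives tried the adjusted p ran up to 1.

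In controls Fcan01_09653 stood at 64.1, 28.0 and 38.4 CPM at 12 h, 95.7, 92.9 and 187 at 24 h, 44.9, 97.8 and 38.0 at 36 h, 213, 117 and 25.9 at 48 h, 11.4, 104 and 17.7 at 60 h, and 261, 350 and 268 at 72 h. Its 72 h libraries held the 3 highest of the 18 control values, and they lay far above the 69.4 to 73.9 CPM of exposed animals at that time.

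One member of the high set stood against its direction in exposed animals by more than the others: Fcan01_09780, with a fitted difference of -0.18 ± 0.14 (edgeR, adjusted p = 1). In controls it had 0.35 ± 0.10, on values between 62.5 and 154 CPM. With imidacloprid its values lay between 61.0 and 139 CPM, and the libraries of 24 and 12 h, of 48 and 60 h and of 72 and 60 h overlapped in part.

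The gene with the lowest correlation in controls, -0.663, was Fcan01_16253. In controls it stood at 5.64, 8.17 and 7.28 CPM at 12 h, 4.90, 3.17 and 4.41 at 24 h, 8.64, 5.06 and 9.02 at 36 h, 6.23, 4.72 and 5.41 at 48 h, 8.03, 7.68 and 9.67 at 60 h, and 7.11, 7.93 and 9.75 at 72 h. The last trough was missing, since the 72 h libraries overlapped those of 60 h. The fitted difference was -0.62 ± 0.16 in controls and -0.04 ± 0.25 with imidacloprid (edgeR, adjusted p = 1). In exposed animals the 60 h libraries, at 10.8, 13.6 and 7.10 CPM, overlapped those of 72 h, at 10.6, 7.85 and 7.51 CPM.

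Fcan01_28077 had a correlation of -0.655 and the largest fitted difference of the low set in controls, -1.38 ± 0.33. Its control values were 6.16, 11.6 and 7.52 CPM at 12 h, 3.73, 2.19 and 0.995 at 24 h, 5.95, 4.15 and 7.26 at 36 h, 3.83, 0.825 and 1.95 at 48 h, 5.53, 3.35 and 9.96 at 60 h, and 5.93, 4.25 and 3.28 at 72 h. With imidacloprid the trough at 24 h was there, at 3.51, 3.40 and 3.73 CPM after 5.67, 4.60 and 5.38 at 12 h. The trough at 48 h was not, since those libraries stood at 2.17, 14.8 and 7.46 CPM and held both the lowest and the highest of the 18 exposed values. The fitted difference was -0.21 ± 0.32 (edgeR, adjusted p = 1).

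In exposed animals the low set's largest difference in the direction of controls was that of Fcan01_21429, -0.60 ± 0.27 (edgeR, adjusted p = 1), where controls had -0.93 ± 0.27. With imidacloprid it stood at 51.8, 36.4 and 22.1 CPM at 12 h and at 12.9, 13.1 and 14.3 CPM at 24 h, without overlap. At 36 h it stood at 21.0, 15.3 and 15.3 CPM, and at 48 h at 6.84, 22.3 and 14.5. It stood at 16.4, 31.0 and 14.2 CPM at 60 h and at 18.7, 14.3 and 13.3 CPM at 72 h, so that successive groups overlapped from 36 h on. Of the 10 genes of the low set that went the other way, the one with the largest difference had 0.20. Fcan01_28077 and Fcan01_21429 each had the gene of the next identifier in the low set as well, and 3 such pairs of successive identifiers were found among the 100 genes, all in the low set. Whether successive identifiers are neighbours on the genome or similar copies is not known from the table.

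**Figure D4:**
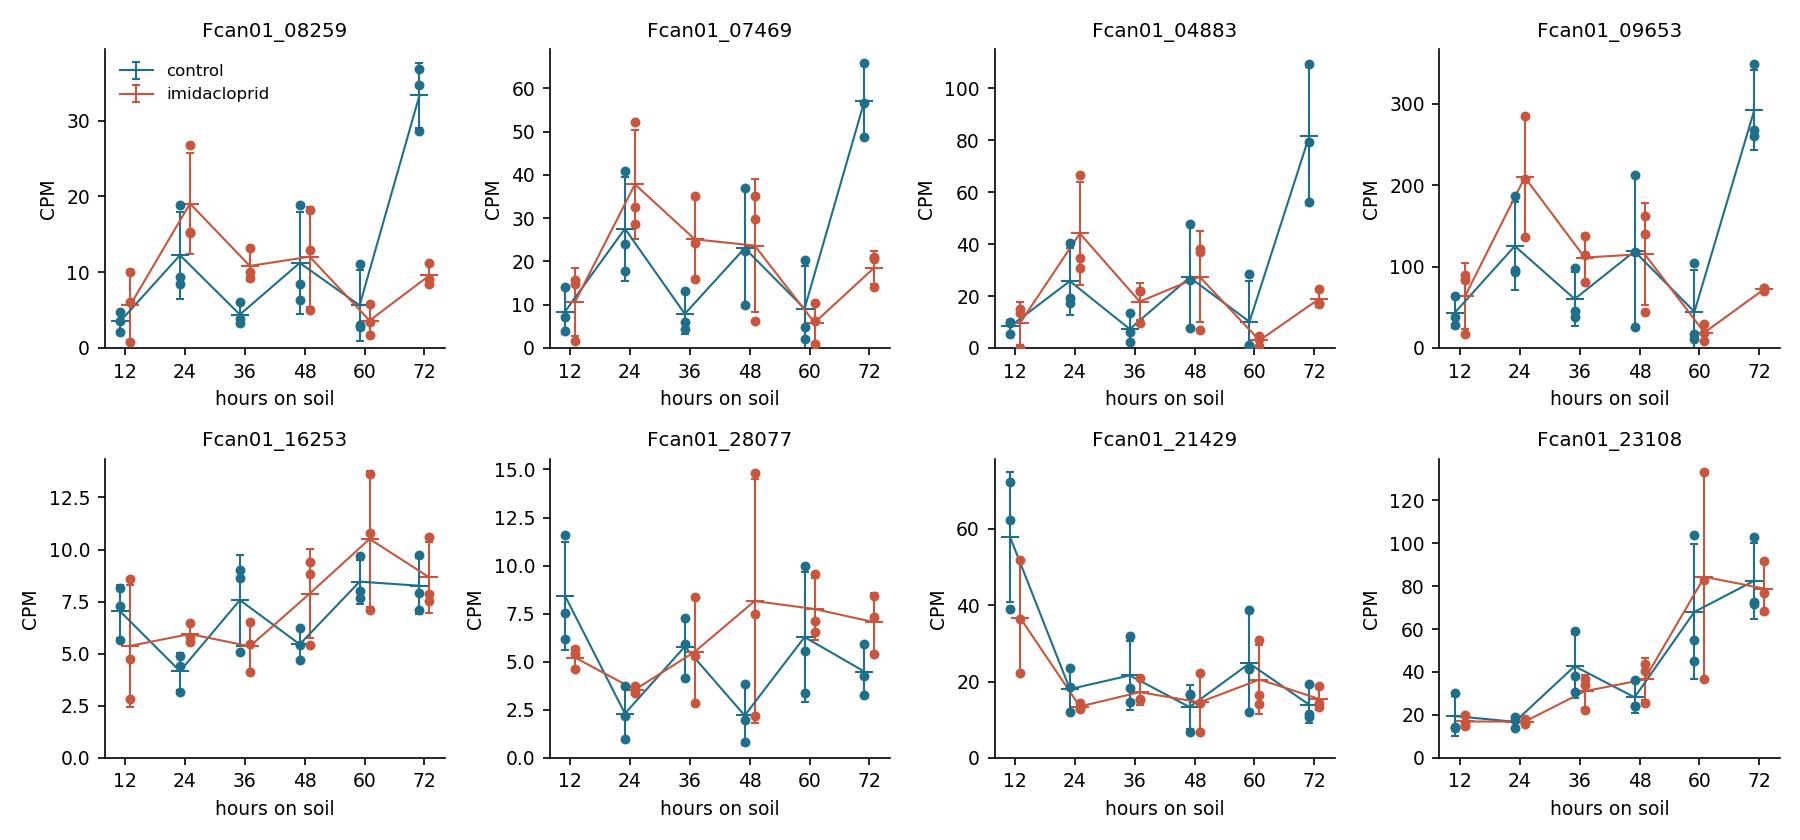
CPM of 8 genes at each hour on soil, with a point for each library, group means joined by lines and bars of 1 SD (n = 3), in controls and with imidacloprid. The upper row holds genes of the high set and the lower row genes of the low set, and at 72 h the upper genes stand higher in controls than with imidacloprid.

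Within each set the genes varied together, also among libraries of the same time point. The median correlation between pairs of genes of the high set was 0.72 in controls and 0.73 in exposed animals, and in the low set 0.61 and 0.64, against 0.016 and 0.025 over all pairs of genes of 5 CPM or more. The control values follow in part from the choice of the genes, and the exposed values do not. After each gene's time point means were subtracted, the median in controls was 0.51 in the high set and 0.47 in the low set, against 0.037 over all pairs. In exposed animals it was then 0.76 in the high set and 0.74 in the low set, against 0.028 over all pairs. Between genes of the high set and genes of the low set the median was -0.56 in exposed animals. Without the 3 libraries that stood apart, the medians over pairs in exposed animals were 0.51 in the high set and 0.50 in the low set, and 0.46 and 0.49 after time point means were subtracted, against 0.021 and 0.047 over all pairs. Between the sets the median was then -0.30. Pairs of genes share the same libraries, so these values describe the libraries and have no test.

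Many other genes went with the sets. In exposed animals 536 of the 11619 other genes of 5 CPM or more, 4.61%, correlated above 0.8 with the mean level of the high set, and 917, 7.89%, with that of the low set. A further 2973, 25.6%, correlated below -0.8 with the low set. In controls these shares were 0.594%, 2.02% and 4.19%. In exposed animals without the 3 libraries that stood apart they were 0.129%, 4.61% and 6.41%. The first principal component of the other genes held 33.4% of their variance. It correlated with the mean level of the low set at -0.87 in controls and -0.93 in exposed animals (n = 18 libraries each). With the high set it correlated at 0.24 in controls and 0.76 in exposed animals. Without the 3 libraries these values in exposed animals were -0.86 and 0.44 (n = 15 libraries).

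The same component differed between the phases in controls more than in exposed animals, within its spread in both. Its difference between the phases, in units of its SD over the libraries and with the linear part removed, was 0.54 in controls, with a spread within groups of 0.59, and -0.00 in exposed animals, with a spread of 1.22. For a further fit, a first principal component of the other genes was taken anew from the 18 exposed libraries alone. It is not the component described above, which was taken from all 36 libraries. With this new component held in the model of the exposed libraries, 48 genes of the high set and 42 of the low set kept the direction of controls. The medians were 0.42 and -0.11. That fit called 17 genes, 0.0887% of those tested, and 1 of them was a member, Fcan01_09653, at a difference of 1.75 (edgeR, adjusted p = 0.0105). Total counts per library correlated with the alternating pattern at 0.05 in controls and 0.06 in exposed animals. The share of counts taken by the 100 most abundant genes averaged 26.3% at 24, 48 and 72 h in controls and 28.4% at 12, 36 and 60 h, and 27.3% and 27.7% in exposed animals. The part of this share in the alternation was not tested.

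**Figure D5:**
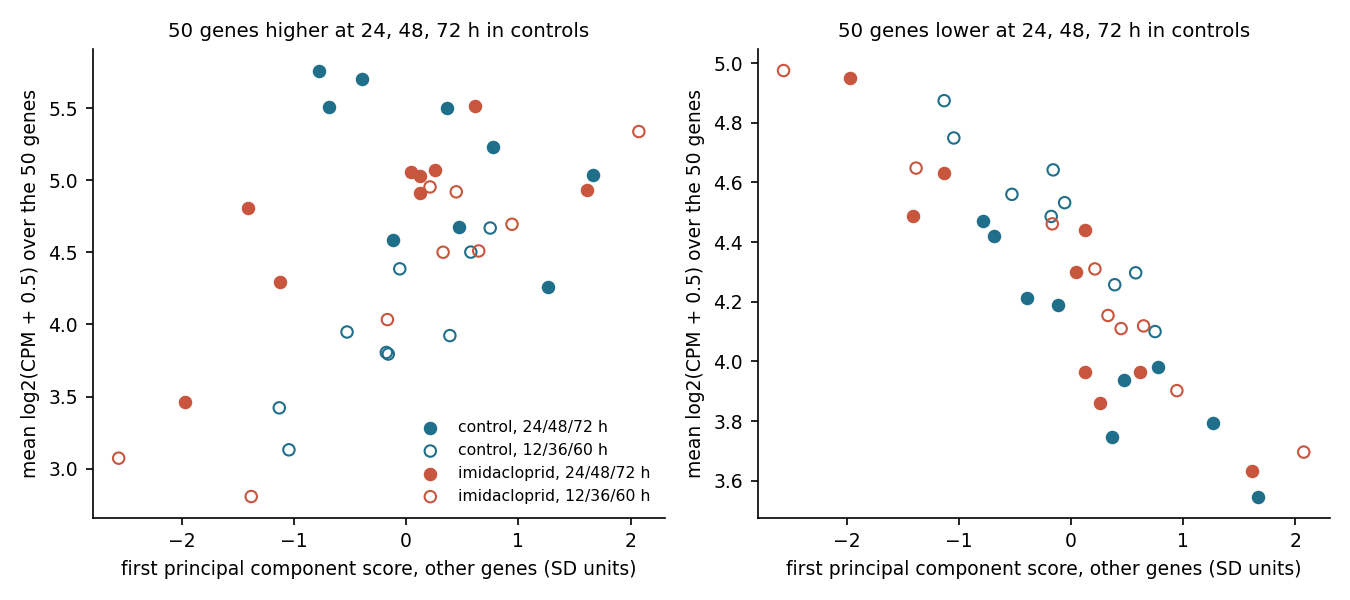
Mean log2(CPM + 0.5) of the high set (left) and of the low set (right) against the score of each library on the first principal component of the 11619 other genes, in SD units, with filled points for 24, 48 and 72 h and open points for 12, 36 and 60 h. The low set goes down along the component in both treatments, with correlations of -0.87 and -0.93, and the high set goes up along it in exposed animals, at 0.76.

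Averaged over the 6 time points, none of the 100 genes passed the test of exposed animals against controls. They were not among the 60 genes called by edgeR between treatments (adjusted p under 0.05), 0.306% of the 19600 genes tested, with 0.168% higher and 0.138% lower. At an unadjusted p under 0.05, 1 gene of the high set was higher and 1 gene of the low set lay in each direction, against 1.82% of all genes higher and 1.47% lower. The fitted difference was positive in 22 genes of the high set, against 42.2% of all genes of 5 CPM or more, and negative in 22 of the low set, against 57.8%. The median log2 difference, imidacloprid minus control, was -0.01 in the high set, between -0.32 and 0.39, and 0.01 in the low set, between -0.69 and 0.46. DESeq2 called 1 gene of the low set, where it called 0.679% of all genes. Of the members limma-voom called 0, where it called 0.219% of all genes.

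Over the whole exposure, 3 of the 100 genes passed the test of a linear change, a share near that of all genes. The linear contrast over time in exposed animals, scaled to the log2 change from 12 to 72 h, called 452 genes by edgeR, 2.36% of those tested. Of these 2 were in the low set, both rising, against 1.62% of all genes that rose, and 1 was in the high set, falling, against 0.741%. DESeq2 called 10 members, where it called 8.51% of all genes. At an unadjusted p under 0.05, 7 genes of the high set fell, against 7.47% of all genes, and 17 of the low set rose, against 12.8%. In controls the same contrast called 1.51% of the genes tested. There 5 genes of the high set and 1 of the low set rose, against 0.711%, and 1 and 2 fell, against 0.801%. The rule used these control libraries and favours genes of low spread in them. Nothing is therefore read from the control counts, nor from the control p-values of members given below. When single libraries were left out, the number of members called in exposed animals ran from 2 to 10: it was 10 without 12 h replicate 2, where 4.92% of all genes were called, and 2 without 12 h replicate 6 or 72 h replicate 1, where 1.06% and 0.805% were.

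Fcan01_23108, of the low set, rose by 2.63 ± 0.32, or 6.17-fold, with imidacloprid (edgeR, adjusted p = 0.00141). It stood at 14.8, 19.8 and 16.2 CPM at 12 h, 15.7, 16.9 and 18.0 at 24 h, 22.4, 34.1 and 36.6 at 36 h, 43.8, 40.4 and 25.4 at 48 h, 83.0, 133 and 36.8 at 60 h, and 91.6, 76.6 and 68.3 at 72 h. The values went up in both treatments, since in controls the gene rose by 2.25 ± 0.33 (edgeR, adjusted p = 0.00332), from 14.4, 30.1 and 13.8 CPM at 12 h to 103, 71.7 and 72.7 CPM at 72 h.

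Fcan01_16728, also of the low set, rose by 1.56 ± 0.31 with imidacloprid (edgeR, adjusted p = 0.0171). It stood at 3.66, 3.85 and 2.91 CPM at 12 h and at 7.82, 8.16 and 8.59 CPM at 72 h, without overlap. The call was lost without 12 h replicate 6 (1.48, edgeR adjusted p = 0.0577) and without 72 h replicate 1 (1.54, edgeR adjusted p = 0.0512). In controls the change was 0.80 ± 0.22 (edgeR, adjusted p = 0.0809).

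Fcan01_06291, of the high set, fell by 1.01 ± 0.15 on the log2 scale with imidacloprid (edgeR, adjusted p = 0.00403) and by 1.04 ± 0.10 in controls (edgeR, adjusted p = 0.00011). With imidacloprid it stood at 225, 169 and 179 CPM at 12 h, 256, 219 and 218 at 24 h, 180, 147 and 150 at 36 h, 161, 143 and 133 at 48 h, 91.1, 97.6 and 99.1 at 60 h, and 129, 142 and 108 at 72 h. The decline was uneven: 72 h lay wholly above 60 h, 24 h overlapped 12 h, and the mean fell from 159 CPM at 36 h to 146 at 48 h. In controls 72 h, at 95.8, 90.5 and 93.2 CPM, lay wholly below 60 h, at 106.5, 115.3 and 103.3 CPM. This gene had the highest correlation of the 100 with the alternating pattern in exposed animals, 0.722. Its fitted difference between the phases was 0.43 ± 0.10 with imidacloprid (edgeR, adjusted p = 0.437) and 0.26 ± 0.07 in controls.

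The linear change of the high set was mostly upward in controls and mostly downward in exposed animals, and in the latter its direction depended on the model. The fitted linear change had a median of 0.94 in controls, with 43 of 50 genes going up, against 44.8% of all genes of 5 CPM or more, and of -0.24 in exposed animals, with 34 going down, against 58.3%. In the low set the medians were 0.04, with 24 genes going down in controls against 55.2%, and 0.53, with 10 going down in exposed animals. The linear contrast over 6 points takes in part of an alternation. With the alternation held in a least-squares fit of log2(CPM + 0.5), the median change from 12 to 72 h was 0.49 in the high set in controls, with 42 of 50 genes going up, and -0.30 with imidacloprid, with 39 going down. The medians over all genes of 5 CPM or more were -0.04 and -0.09. In the low set they were 0.23 and 0.52, with 41 genes going up in exposed animals. In exposed animals the median of the high set became 0.30, with 36 of 50 genes going up, when the component taken from the exposed libraries alone was held in the model. It became -0.04, with 25 going up, without 12 h replicate 6. The difference in linear change between treatments was not tested.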

How the data were processed

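The deposited table holds estimated counts per gene model, whole numbers as deposited (0 were not whole). Per the labels' protocols the authors made them from stranded mRNA libraries (TruSeq) of TRIzol-extracted RNA, with reads trimmed by Trim Galore (Cutadapt version given as 0.6.7) and assigned to the transcriptome by Salmon 1.4.0; DESeq2 1.28.1 is named for normalization. Which transcriptome release was used is not given. Salmon divides reads between similar transcripts, so near-identical copies are uncertain.

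CPM use column totals. Tests used edgeR 4.0.16 in R 4.3.3 (filterByExpr with minimum count 10 and minimum total 15, TMM, robust quasi-likelihood fit, a mean per time point, Benjamini-Hochberg over all genes tested, threshold 0.05), with DESeq2 1.42.0 and limma 3.58.1 as alternatives. Alternation and trend were fitted within each treatment, with 12 residual degrees of freedom. A standard error is the log2 difference divided by the square root of the F statistic. The scripts were tested on simulated data.

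Of 28734 identifiers, 0 were found in a gene table of 27231 genes, so names, positions and sequences are not used here, and lists of clock, cuticle and digestive genes were not read. The members and lists were chosen with earlier results of these data known. Genes named are the 2 highest and 2 lowest correlations in controls, in each set the largest difference with and against the direction of controls in exposed animals, and called members with the smallest adjusted p for the trend; at most 2 identifiers per direction are given. At 72 h with imidacloprid, the replicate number 4 occurs on 2 libraries; their counts differed by more than sampling noise and both were used.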

Additional observations from a re-analysis of the deposited data

How the results depend on the processing

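Of the 100 genes, 49 were chosen again with a minimum of 1 CPM, 47 with 20 CPM, 65 with no drift removed and 59 without the 12 h time point, and between 50 (without control 24 h replicate 3) and 92 without single control libraries. The count of genes called for alternation in exposed animals, 12, became 44 with DESeq2, 7 with a minimum of 5 CPM, 7 without the 12 h time point and 0 with a line over time plus the alternation, with all 36 libraries in the fit or with the linear part left in. Without the 2 libraries of lowest first-component score, an alternative chosen after seeing the data, it was also 0. Without single libraries it ran from 0 (60 h replicates 1 and 3) to 17 (12 h replicate 2). The members in the direction of controls ran from 66 to 93 of 100 without single libraries, and in the other runs from 62 to 90. The median of the high set ran from 0.25 to 0.45 without single libraries. That of the low set ran from -0.26 to 0.0012, and it turned to 0.026 with the linear part left in and to 0.010 without the 12 h time point. In controls DESeq2 called 49 genes for alternation, and leaving out single libraries gave 0 to 4. Between treatments, where 60 genes were called, DESeq2 gave 133, a minimum of 5 CPM gave 25, and single libraries left out gave 42 to 73. For the trend in exposed animals, 452 were called, and DESeq2 gave 1631. Holding the first component of the exposed libraries alone in the model, chosen after seeing the data, gave 1016. Single libraries left out gave 156 (72 h replicate 1) to 955 (12 h replicate 2), with 273 and 224 without the first and the second of the libraries numbered 4 at 72 h. The cause of these shifts was not tested.

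Replicate numbers were not taken to pair the libraries. Of 8 pairs with the same number and time, 3 had deviations correlated above 0.1, with a range of -0.37 to 0.54. So few pairs cannot decide whether libraries of the same number share a batch. With the replicate number as a block, 0 genes were called for alternation in exposed animals, with 70 of 100 members in the direction of controls. That block gave 31 genes between treatments and 0 for the trend in exposed animals. The trend calls of Fcan01_23108, Fcan01_16728 and Fcan01_06291 were thus lost with it.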
